A study of Mus musculus with 6 samples.

Results

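The RNA of 46 genes that drive cells into and through mitosis was examined in motor neurons (MNs) made from mouse embryonic stem cells (mESCs). The genes were chosen by symbol from general knowledge of mitotic entry, the spindle, the kinetochore, the spindle checkpoint and chromosome condensation. Earlier results of these data were known when they were chosen. All 46 were found in the authors' table of 41945 genes and loci. Where a symbol had several entries, the entry with the highest level was used. Levels are in FPKM, sequenced fragments scaled to exon length and to the mapped total. This scaling lets levels be set side by side between genes, but how completely reads could be placed on each gene was not checked. Each of the 46 also reached 1 FPKM in at least 1 genotype with a value above 0 in the other. So did 14926 genes with a symbol in total, which are called all genes from here on.

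Control MNs were derived from the Hb9 mESC line, labelled wildtype, and spinal muscular atrophy (SMA) MNs from the A2 line (SMN2+/+;mSmn-/-), which lacks mouse Smn. Both lines have the FVB/N background, and by the study's methods both carry the human SMN2 transgene and an eGFP reporter driven by the Hb9 (Mnx1) promoter. Embryoid bodies of both lines received 1 µM retinoic acid and 1 µM Smoothened agonist for 5 days, and GFP-positive cells were collected by FACS, with 3 samples sequenced per genotype. The table holds 1 FPKM value per gene and genotype, a value of the authors that combines the 3 samples. The table also holds the result of the authors' own test, which was not used here. From these pooled values no SD, replicate comparison or test could be computed, the number of reads behind each value is unknown, and a difference of at least 2-fold was used as the limit in place of a test. Each genotype is 1 mESC line, so genotype and cell line cannot be told apart.

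Smn1, the gene deleted in the A2 line, had a level of 137 FPKM in Hb9 control and 5.26 FPKM in A2 SMA MNs. Mnx1, whose promoter drives the sorted reporter, was at 41.2 FPKM in Hb9 control and 44.2 FPKM in A2 SMA MNs. The other MN markers separated the genotypes. The LIM homeodomain factor Isl1 was at 108 FPKM in Hb9 control and 5.95 FPKM in A2 SMA MNs. Lhx3, its partner in MN specification, was at 27.6 and 0.35 FPKM. Chat, the enzyme of acetylcholine synthesis, was at 15.5 and 0.34 FPKM. Of the 7 MN markers in the table, 4 were under 1 FPKM in A2 SMA MNs and 1 in Hb9 control MNs, with Slc5a7 under it in both. The A2 SMA cells thus held little RNA of the MN markers apart from Mnx1, and they are called A2 SMA MNs here only as the study's name for the sorted GFP-positive cells. The sum over the MN markers was 216 FPKM in Hb9 control and 52.5 FPKM in A2 SMA MNs, with Isl1 the most abundant in the former and Mnx1 in the latter.

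Some marker lists of other cell types differed between genotypes as well. The endoderm list stayed near the shares of all genes, and the fibroblast list did so only relative to the median of all genes. All 12 markers of pluripotent cells were at least 2-fold higher in A2 SMA MNs, beside 6.83% of all genes, with a sum of 311 FPKM in Hb9 control and 1995 FPKM in A2 SMA MNs and Pou5f1 as the most abundant (98.3 and 775 FPKM). Of 9 neural progenitor markers, 8 were at least 2-fold lower in A2 SMA MNs, beside 22.4% of all genes, their sum was 2530 FPKM in Hb9 control and 249 FPKM in A2 SMA MNs, and Vim was the most abundant in both. All 12 pan-neuronal markers in the table were at least 2-fold lower, with sums of 1613 and 167 FPKM, Nefm the most abundant in Hb9 control and Stmn2 in A2 SMA MNs. Of 9 fibroblast markers, 5 were at least 2-fold lower and 1 at least 2-fold higher, beside 22.4% and 6.83% of all genes. Relative to the median of all genes these counts were 2 and 1, close to the shares of 16.5% and 10.4%. The fibroblast markers summed to 74.8 FPKM in Hb9 control and 39.8 FPKM in A2 SMA MNs, with Col1a2 and Col1a1 the most abundant. The 7 endoderm markers summed to 70.1 and 54.7 FPKM, led by Dab2 in both, with 1 of 5 measured at least 2-fold lower, beside 22.4% of all genes, and 0 relative to the median of all genes. The 5 mesoderm markers summed to 3.08 and 5.98 FPKM, led by Kdr and Eomes, and 3 of them were under 1 FPKM in Hb9 control and 4 in A2 SMA MNs. Of the 2 measured, Eomes was at least 2-fold higher and Kdr at least 2-fold lower, beside 6.83% and 22.4% of all genes. No marker in the table was at 0 in either genotype. These lists were measured in the same 2 sets of cells as every mitosis gene described here, and their part in the results on mitosis was not tested. In bulk RNA, fewer cells of a type and less RNA per cell cannot be told apart, and a higher level of a mitosis gene likewise does not separate more dividing cells from more RNA in each.

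Entry into mitosis is driven by the kinase CDK1 bound to A- and B-type cyclins, whose activity is held back by inhibitory phosphorylation and released by the CDC25 phosphatases. Polo-like and Aurora kinases then build the spindle, the kinetochore ties chromosomes to its microtubules, and the spindle checkpoint holds back the anaphase-promoting complex (APC/C) until every chromosome is attached. Most of these genes are transcribed in G2 and M phase, and differentiated neurons such as MNs have left the cell cycle, whereas mESCs and neural progenitors divide.

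All 46 mitosis genes had a level of at least 8.58 FPKM in both genotypes, and most differed little between them. The median level of the 46 genes was 68.6 FPKM in Hb9 control and 79.8 FPKM in A2 SMA MNs, while the median of all genes was 17.6 and 12.9 FPKM. In Hb9 control MNs 43 of the 46 lay above the median of all genes, and in A2 SMA MNs 45 did. A level of 30 FPKM or more was seen for 39 genes in Hb9 control and 40 in A2 SMA MNs, beside 35.6% and 29.7% of all genes. A typical member ranked above 84.7% of all genes in Hb9 control MNs and above 89.5% in A2 SMA MNs.

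The levels covered a wide range with much the same order in both genotypes. Top2a, the topoisomerase that untangles sister chromatids, was the highest of the 46 in Hb9 control MNs at 384 FPKM, and Cdk1 was the highest in A2 SMA MNs at 335 FPKM. Cks2, a small subunit of the CDK1 complex, was the lowest in both (8.58 and 9.05 FPKM). The 5 highest genes made up 29.2% of the summed FPKM of the 46 in Hb9 control MNs and 28.5% in A2 SMA MNs. Across the 46 genes, Spearman's rho between the levels in the genotypes was 0.88 and Pearson's r of the log2 levels was 0.89, both as a description, since genes are not independent replicates and each pair of values shares its gene length and annotation. The genes that changed place most in this order included Mybl2, from rank 27 in Hb9 control to rank 3 in A2 SMA MNs, Pttg1, from rank 4 to rank 25, and Cdc25b, from rank 20 to rank 41.

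**Figure D1:**
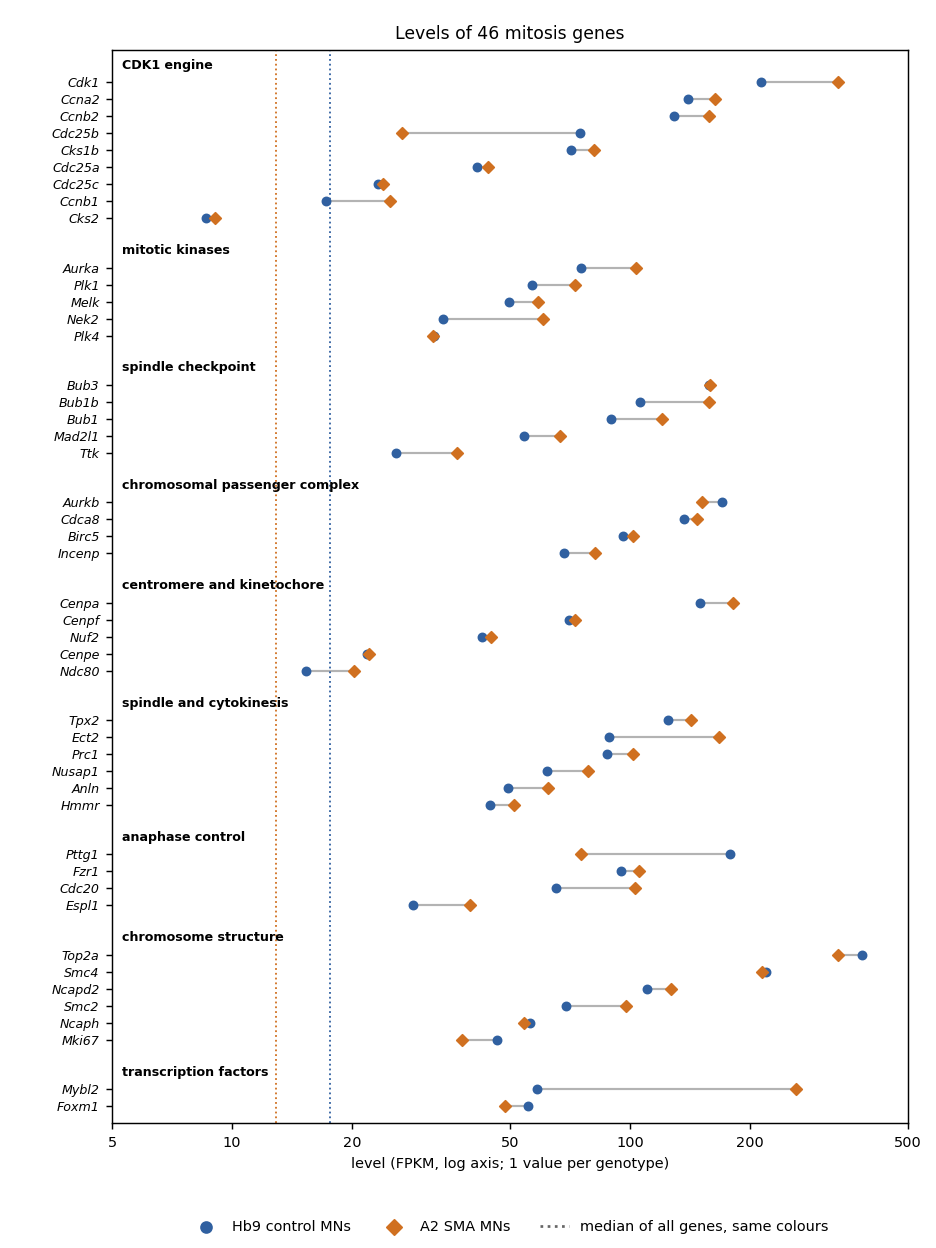
Level of each of the 46 mitosis genes in Hb9 control MNs (blue circles) and A2 SMA MNs (orange diamonds), in FPKM on a log axis, grouped by role; each point is the authors' 1 value per genotype, and dotted lines mark the medians of all genes, 17.6 and 12.9 FPKM. Most pairs lie close together, and the 3 longest bars belong to Mybl2 (58.3 to 262 FPKM), Cdc25b (75.0 to 26.8 FPKM) and Pttg1 (179 to 75.4 FPKM).

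Differences between genotypes are given as the log2 ratio of A2 SMA over Hb9 control FPKM, so that positive values mean a higher level in A2 SMA MNs. The median log2 ratio of all genes was itself -0.29, with quartiles of -0.89 and 0.19, so the values are also given relative to this median gene. The median log2 ratio of the 46 mitosis genes was 0.21, which is 0.50 above the median gene, with quartiles of 0.04 and 0.42. Of the 46, 37 were higher in A2 SMA MNs, beside 34.1% of all genes, and 44 lay above the median gene, beside 50% of all genes. Cdc25b and Pttg1 were the 2 below it.

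Few of the differences reached 2-fold. At least 2-fold higher in A2 SMA MNs was 1 of the 46, Mybl2, beside 6.83% of all genes, and at least 2-fold lower were 2, Cdc25b and Pttg1, beside 22.4% of all genes. The other 43 were within 2-fold. Relative to the median gene, 3 were at least 2-fold higher, with Ect2 (1.21) and Nek2 (1.13) beside Mybl2, against 10.4% of all genes, and 1 was at least 2-fold lower, Cdc25b, against 16.5% of all genes. The log2 ratio was between -0.5 and 0.5 for 35 of the 46 and for 46.3% of all genes, and it was 0.5 or more for 9 of the 46 and for 14.6% of all genes. The mitosis genes thus sat mostly within 2-fold between the genotypes and above the median gene.

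The status that Cuffdiff gave each gene was FAIL for 18 of the 46, beside 14.0% of all genes. This status marks loci where its calculation did not complete, and the FPKM values of these genes are used here all the same. The median log2 ratio was 0.21 over these 18 genes and 0.20 over the 28 with the status OK. Level and ratio were hardly related, with a Spearman's rho between mean log2 level and log2 ratio of 0.04 across the 46 genes.

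The CDK1 engine, with its cyclins, subunits and activating phosphatases, had a median log2 ratio of 0.20 over 9 genes, 8 of them higher in A2 SMA MNs, beside 34.1% of all genes. Cdk1, the kinase itself, was at 213 FPKM in Hb9 control and 335 FPKM in A2 SMA MNs, with a log2 ratio of 0.65. Ccnb1, the cyclin that moves with CDK1 into the nucleus at mitotic entry, had a level of 17.2 FPKM in Hb9 control cells and was 1.45-fold higher in A2 SMA MNs (0.54). Ccnb2, the B-type cyclin of the Golgi and cytoplasm, was at 129 and 158 FPKM (0.29). Both B-type cyclins were higher in A2 SMA MNs. The FPKM of Ccnb2 was 7.50-fold that of Ccnb1 in Hb9 control and 6.31-fold in A2 SMA MNs. Whether reads map equally well to both genes was not tested. Ccna2, the cyclin of S phase and G2, was at 139.8 and 163 FPKM (0.22). Cks1b, which docks CDK substrates, was at 71.0 and 81.3 FPKM (0.20). These values were 8.27-fold and 8.99-fold the FPKM of its relative Cks2 (0.08), with the same limit on read mapping.

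The 3 CDC25 phosphatases, which remove the inhibitory phosphates from CDKs, differed in their ratios. Cdc25b, which starts the activation of CDK1 in G2, was at 75.0 FPKM in Hb9 control and 26.8 FPKM in A2 SMA MNs, 2.80-fold lower, with a log2 ratio of -1.49 that was -1.20 relative to the median gene. A second entry of Cdc25b at the same locus (chr2:130972060-131024233, build NCBI m37) held 3.91 and 2.60 FPKM, lower in A2 SMA MNs too. Cdc25a, which also acts at the start of S phase, was at 41.3 and 44.1 FPKM (0.09). Cdc25c, a target of the DNA damage checkpoint, was at 23.3 and 23.9 FPKM (0.04), a direction that turns when its second entry (2.29 and 1.26 FPKM) is added. The summed level of the 3 phosphatases was 139.6 FPKM in Hb9 control and 94.8 FPKM in A2 SMA MNs. Cdc25b supplied 53.7% of that sum in Hb9 control and 28.3% in A2 SMA MNs, and Cdc25a 29.6% and 46.5%, so the most abundant CDC25 was Cdc25b in Hb9 control and Cdc25a in A2 SMA MNs.

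The 5 other mitotic kinases had a median log2 ratio of 0.36. Nek2, which separates the centrosomes, had the highest ratio among them, with 33.8 FPKM in Hb9 control and 60.6 FPKM in A2 SMA MNs (0.84, or 1.13 relative to the median gene). Aurka, the Aurora kinase of the centrosome and spindle poles, was at 75.2 and 104 FPKM (0.46). Plk1, which acts from mitotic entry to cytokinesis, was at 56.9 and 72.8 FPKM (0.36). Melk, a kinase that is high in dividing progenitors, was at 49.5 and 58.9 FPKM (0.25). Plk4, the kinase that licenses centriole duplication, was level between the genotypes at 32.2 and 32.0 FPKM, a log2 ratio of -0.01 that lay above the median gene (0.28).

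The 5 spindle checkpoint genes were all higher in A2 SMA MNs, each by less than 2-fold, with a median of 0.43, beside 34.1% of all genes that were higher. Bub1b, which encodes the APC/C inhibitor BUBR1, was at 106 and 158 FPKM (0.57). Ttk, the MPS1 kinase that starts checkpoint signalling at the kinetochore, was at 25.8 and 36.7 FPKM (0.51). Bub1, the kinase that recruits the other checkpoint proteins, was at 89.8 and 120.7 FPKM (0.43), and Mad2l1, which binds CDC20 in the checkpoint complex, was at 54.3 and 66.6 FPKM (0.29). Bub3, the most abundant of the 5 in both genotypes, was at 158 and 159 FPKM (0.01). The entry for Bub3 spans 3010073 bases in the table.

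The chromosomal passenger complex, which corrects wrong attachments at the centromere and later steers cytokinesis, had a median of 0.10 over its 4 genes. Its kinase Aurkb was the most abundant and the only one of the 4 lower in A2 SMA MNs, at 170.0 FPKM in Hb9 control and 152 FPKM in A2 SMA MNs, with a log2 ratio of -0.16 that was 0.13 above the median gene. The scaffold Incenp was at 68.2 and 81.8 FPKM (0.26). Cdca8, which encodes Borealin, was at 137 and 148 FPKM (0.12), and Birc5, which encodes Survivin, at 96.4 and 102 FPKM (0.08). The 4 subunits thus stayed within a narrow span of ratios, from -0.16 to 0.26.

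The 5 centromere and kinetochore genes had a median of 0.07, and all were higher in A2 SMA MNs by less than 2-fold, beside 34.1% of all genes that were higher. Ndc80, the microtubule-binding subunit of the NDC80 complex, was at 15.4 and 20.3 FPKM (0.40), and its binding partner Nuf2 was at 42.5 and 44.7 FPKM (0.07). Cenpa, the histone H3 variant that marks centromeres, was the most abundant of the 5 at 150.4 and 182 FPKM (0.28). The large coiled-coil protein gene Cenpf was at 70.2 and 72.7 FPKM (0.05), and the kinetochore motor gene Cenpe at 21.8 and 22.1 FPKM (0.02).

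The 6 genes of the spindle and cytokinesis were all higher in A2 SMA MNs, beside 34.1% of all genes, with a median of 0.28. Each was within 2-fold before scaling. Ect2, the exchange factor that activates RhoA for the cleavage furrow, had the highest ratio of the group at 88.6 FPKM in Hb9 control and 167 FPKM in A2 SMA MNs (0.92), and passed 2-fold with scaling to the median gene (1.21), the upper quartile (1.32) or the reference genes Gusb, Pgk1 and Rpl13a (1.06). Anln, the furrow scaffold anillin, was at 49.3 and 62.4 FPKM (0.34). Prc1, which bundles the microtubules of the central spindle, was at 87.7 and 102 FPKM (0.21). Among the spindle assembly factors, Nusap1 was at 62.0 and 78.3 FPKM (0.34). Tpx2, the activator of Aurora A on spindle microtubules, was at 124 and 143 FPKM (0.20), and Hmmr, which organises spindle poles, was at 44.6 and 51.1 FPKM (0.20).

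The anaphase genes split. Pttg1 encodes securin, the inhibitor of separase, and was at 179 FPKM in Hb9 control and 75.4 FPKM in A2 SMA MNs, 2.37-fold lower with a log2 ratio of -1.24. Relative to the median gene its ratio was -0.95, which is within 2-fold, and its status was FAIL, as for all 4 genes of this group. Espl1, which encodes separase, was at 28.5 and 39.7 FPKM (0.48). The level of securin RNA was 6.27-fold that of separase RNA in Hb9 control MNs and 1.90-fold in A2 SMA MNs. Cdc20, the APC/C activator that the checkpoint inhibits, was at 65.3 and 103 FPKM (0.66). Fzr1, which encodes the APC/C activator CDH1 of late mitosis and G1, was at 95.1 and 105 FPKM (0.14).

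The 6 genes of chromosome structure had a median of -0.04, and 4 of them were lower in A2 SMA MNs, a share close to the 65.9% of all genes, although all 6 lay above the median gene, beside 50% of all genes. Top2a was at 384 and 334 FPKM, a log2 ratio of -0.20 that was 0.09 relative to the median gene. Mki67, the proliferation marker that coats mitotic chromosomes, was at 46.3 and 37.9 FPKM, a log2 ratio of -0.29 that was 0.00 relative to the median gene. These 2 widely used markers of dividing cells were therefore the lowest of the group and close to the median gene. Among the condensin subunits, Smc2 was at 69.0 and 98.0 FPKM (0.51). Its partner in the condensin ring, Smc4, was at 219.6 and 215 FPKM (-0.03). Ncapd2 was at 111 and 127 FPKM (0.20), and Ncaph, which closes the ring, at 56.0 and 54.3 FPKM (-0.05).

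The 2 transcription factors that act on mitosis genes differed from each other. Mybl2 encodes B-MYB, which joins the MuvB complex to switch on G2 and M phase genes, and was at 58.3 FPKM in Hb9 control and 262 FPKM in A2 SMA MNs. The 4.48-fold higher level, a log2 ratio of 2.16, was the largest difference among the 46 genes, and 98.6% of all genes had a lower ratio. Foxm1, the forkhead factor that B-MYB and MuvB recruit to such promoters, was at 55.4 and 48.5 FPKM, a log2 ratio of -0.19 that was 0.10 relative to the median gene. The level of Mybl2 was 1.05-fold that of Foxm1 in Hb9 control MNs and 5.39-fold in A2 SMA MNs. The loci of Mybl2 (chr2:162880293-162910433) and Pttg1 (chr11:43233752-43239753, both build NCBI m37) hold 1 symbol each, whereas the entry of Foxm1 is shared with 4933413G19Rik and that of Top2a with SNORA32.

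Mitosis genes outside the 46 had nearly the same median. Of 106 such genes on 6 lists, 103 were in the table, and their median log2 ratio was 0.20, beside 0.21 for the 46. Of the 103, 62 were higher in A2 SMA MNs and 81 lay above the median gene, beside 37 and 44 of the 46 and 34.1% and 50% of all genes. Their lower quartile was -0.18, beside 0.04 for the 46. At least 2-fold higher were 2, Sgol2 (1.17), which protects centromeric cohesin, and Kifc1 (1.02), a minus-end motor of the spindle, beside 6.83% of all genes, and 7 were so relative to the median gene, beside 10.4%. At least 2-fold lower was 1, the pocket protein gene Rbl2 (-1.06), beside 22.4% of all genes, and it was within 2-fold relative to the median gene (-0.77). Other kinetochore genes had a median of 0.30 over 29 genes, with Fam33a, a subunit of the SKA complex, the lowest (-0.87). Zwint was the most abundant of these in Hb9 control MNs, with 245 FPKM there and 167 FPKM in A2 SMA MNs. Cohesin genes, their regulators and other condensin subunits had a median of 0.28 over 15 genes, with the cohesin subunit Rad21 the most abundant (162 and 196 FPKM). Other regulators of G2 and mitotic entry had a median of 0.34 over 9 genes, with Gtse1 the highest (0.80). Motors and other spindle and cytokinesis genes had a median of 0.16 over 23 genes, with Racgap1, the partner of ECT2 at the central spindle, the most abundant (229.6 and 161 FPKM).

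Among the partners of the 46 genes, the checkpoint and anaphase list and the MuvB and pocket protein list had negative medians. Other checkpoint and anaphase genes had a median of -0.21 over 18 genes, 0.08 above the median gene. Of the 18, 7 were higher in A2 SMA MNs, beside 34.1% of all genes, and 10 lay above the median gene, beside 50% of all genes. In a subset picked after the values were seen, the 12 core subunits of the APC/C, 10 were lower in A2 SMA MNs, beside 65.9% of all genes, and the median was -0.38, or -0.09 relative to the median gene, although 5 of the 12 lay above that gene. The other 6 genes of the list, which remain after that choice, had a median of 0.52. This contrast within the list follows in part from the choice, and no conclusion is drawn from it. The large subunit Anapc1 was at 149 FPKM in Hb9 control and 98.2 FPKM in A2 SMA MNs (-0.60). The MuvB and pocket protein genes had a median of -0.16 over 9 genes, 0.13 above the median gene. Among them the histone-binding subunit Rbbp4 was at 188 and 225 FPKM (0.26). The ratios of this list ran from -1.06 to 0.45, below the 2.16 of Mybl2.

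The median of the 46 mitosis genes lay between those of the DNA replication and G1 lists. DNA replication genes had a median log2 ratio of 0.42 over 39 genes, 34 of them higher in A2 SMA MNs, beside 34.1% of all genes. At least 2-fold higher were 3, or 8 relative to the median gene, beside 6.83% and 10.4% of all genes. The 3 were Pola1 (1.13) of the polymerase that starts new strands, the origin-binding subunit gene Orc1 (1.12) and the helicase subunit gene Mcm3 (1.05). The most abundant gene of this list was the ligase gene Lig1 (212 and 273 FPKM). G1 cyclins, CDKs and CDK inhibitors had a median of -0.53 over 15 measured genes, 10 of them lower in A2 SMA MNs, a share close to the 65.9% of all genes. At least 2-fold lower were 5 of the 15, Ccnd2 (-2.33) and Cdkn2c (-1.78) and, named after their values were seen, Ccnd1 (-1.35), Cdkn1c (-1.27) and Cdkn1b (-1.05), beside 22.4% of all genes. Relative to the median gene this count was 3, beside 16.5% of all genes, and 2 were at least 2-fold higher, Ccne1 (1.18) and Ccnd3 (1.17), beside 10.4%. Cdk4, the kinase partner of D-type cyclins, was the most abundant of the list at 819 FPKM in Hb9 control and 729 FPKM in A2 SMA MNs. The level of Cdk1 was 0.26 times that of Cdk4 in Hb9 control MNs and 0.46 times in A2 SMA MNs. No test of the differences between these lists was made, and the differences in cell type markers given above hold for each of them.

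**Figure D2:**
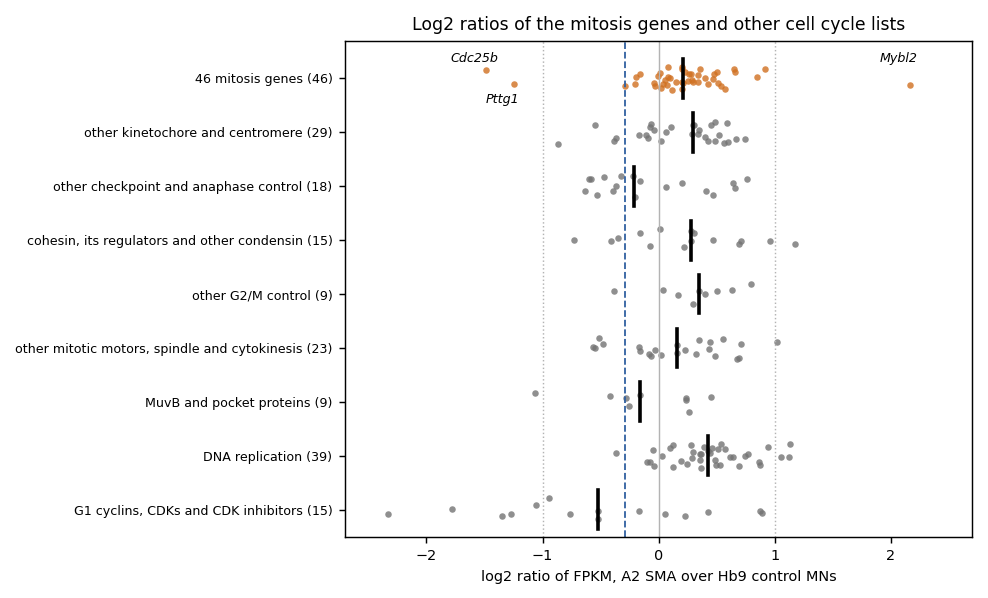
Log2 ratio of A2 SMA over Hb9 control FPKM for each of the 46 mitosis genes (orange) and for the genes of 8 other cell cycle lists (grey), with the number of genes in parentheses, black bars for list medians, a dashed line at the median of all genes (-0.29) and dotted lines at 2-fold. The 46 genes centre on 0.21 with Mybl2, Cdc25b and Pttg1 apart, DNA replication genes centre on 0.42 and G1 genes on -0.53; relative to the median gene Pttg1 is within 2-fold.

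Promoters of mitosis genes are known for a pair of sequence elements, the cell cycle genes homology region (CHR), which MuvB complexes bind, and CCAAT boxes, which the factor NF-Y binds. RefSeq promoter sequences (build GRCm38.p6), each from 250 bases before to 50 bases after the gene start, were found for 39 of the 46 genes. Those without an entry were Aurkb, Ccna2, Cdc25c, Foxm1, Incenp, Smc4 and Tpx2. On both strands, the CHR was searched as TTTGAA, the CCAAT box as CCAAT, and the E2F site as TTTGGCG or TTTCCCG, none of which contains another. A gene with several promoters was counted once if any of them matched.

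TTTGAA was found in 22 of the 39 genes (56.4%), beside 13.7% of the 9547 genes of all genes that had a promoter sequence and 20.2% of all 27025 genes of the promoter collection. CCAAT was found in 28 of the 39 (71.8%), beside 42.9% and 41.1%. Both together were found in 20 of the 39 (51.3%), beside 5.83% and 7.97%. The E2F patterns were found in 6 of the 39 (15.4%), beside 9.46% and 5.55%. The pair of TTTGAA and CCAAT thus marked a larger share of the 39 genes than of all genes, a description without a test.

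Other mitosis genes had TTTGAA in 46.2% of 91 promoters and CCAAT in 57.1%. DNA replication genes had TTTGAA in 12.1% of 33, CCAAT in 66.7% and the E2F patterns in 51.5%. In the 39 genes the median position of TTTGAA matches was -10 and that of CCAAT -67.5 bases from the start, beside -141 and -85 in the 9547 genes. Between 100 bases before and 50 bases after the start, TTTGAA was found in 21 of the 39 genes (53.8%) and CCAAT in 25 (64.1%), beside 5.56% and 29.6% of the 9547 genes. Over the full 300 bases of the first listed promoter, 20 of the 39 genes had at least 2 CCAAT matches (51.3%), beside 14.9%. The 22 genes with TTTGAA had a median log2 ratio of 0.31 and the 17 without it 0.09. For CCAAT these medians were 0.24 with and 0.25 without, and for the E2F patterns, held by 6 genes, 0.20 with and 0.29 without. These differences were not tested.

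**Figure D3:**
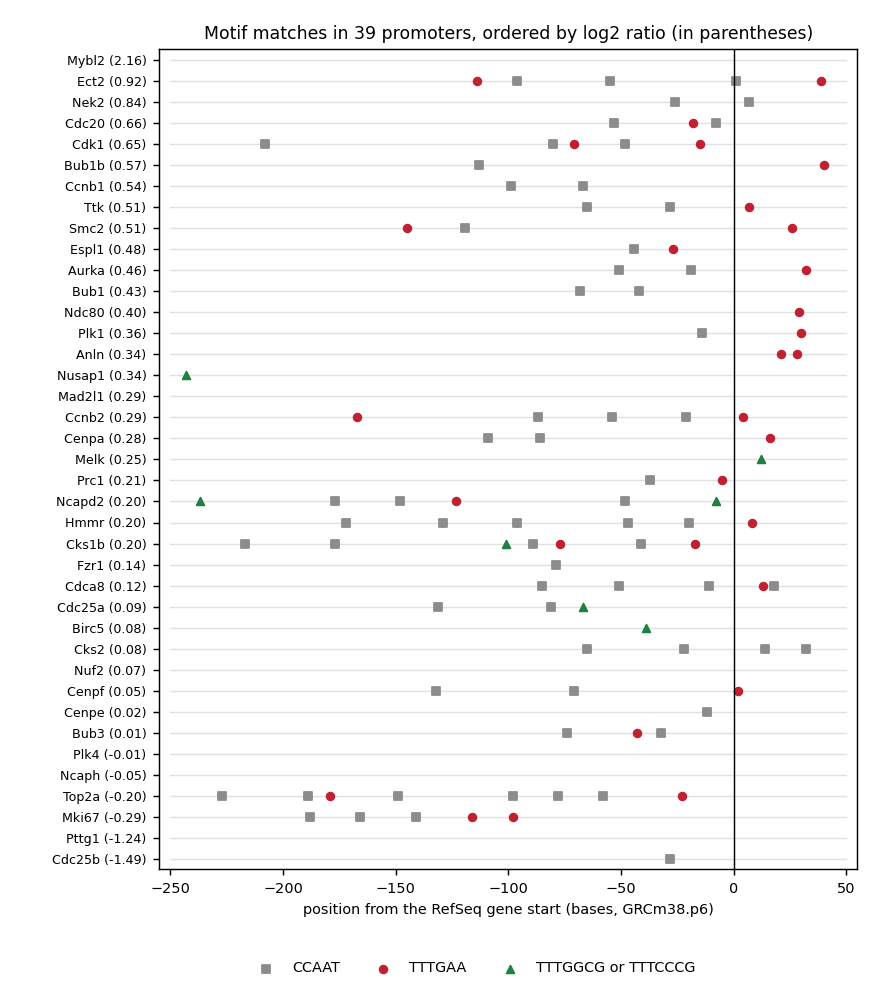
Positions of TTTGAA (red circles), CCAAT (grey squares) and E2F patterns (green triangles) on either strand in the RefSeq promoters of 39 mitosis genes, in bases from the gene start (build GRCm38.p6), ordered by the log2 ratio of A2 SMA over Hb9 control FPKM; where a gene has 2 promoters, 1 is drawn. TTTGAA lies near the start in most of the 22 genes that hold it. The 6 genes with no match are Mybl2, Pttg1, Plk4, Mad2l1, Nuf2 and Ncaph, of which Plk4, Mad2l1, Nuf2 and Ncaph were within 2-fold.

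The promoters of Cdk1, Cdc20, Top2a and Ccnb2 show the layout of TTTGAA and CCAAT in genes that were within 2-fold between genotypes, although Cdk1 (1.05) and Cdc20 (1.06) pass 2-fold with upper quartile scaling. All are promoters from the 20 of the 39 genes that hold both. Each is printed 5′ to 3′ on the strand of the gene, from 120 bases before the start to 30 bases after it, with TTTGAA or CCAAT on either strand in capitals, so that TTCAAA and ATTGG mark matches on the other strand. The window of Cdk1 (chr10:69352883-69353032, minus strand) holds 2 TTTGAA and 2 CCAAT matches. That of Cdc20 (chr4:118437314-118437463, minus strand) holds 1 and 2, that of Top2a (chr11:99024160-99024309, minus strand) holds 1 and 3, and that of Ccnb2 (chr9:70421525-70421674, minus strand) holds 1 and 3.
Cdk1: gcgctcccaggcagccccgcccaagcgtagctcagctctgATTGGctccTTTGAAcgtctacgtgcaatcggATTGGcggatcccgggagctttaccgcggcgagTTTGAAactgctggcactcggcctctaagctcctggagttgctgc
Cdc20: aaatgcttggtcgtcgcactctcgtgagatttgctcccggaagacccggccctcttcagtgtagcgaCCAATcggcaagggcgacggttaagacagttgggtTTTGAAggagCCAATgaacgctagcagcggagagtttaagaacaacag
Top2a: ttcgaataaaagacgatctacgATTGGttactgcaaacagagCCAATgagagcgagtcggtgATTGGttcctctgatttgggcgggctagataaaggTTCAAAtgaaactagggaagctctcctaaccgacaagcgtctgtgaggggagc
Ccnb2: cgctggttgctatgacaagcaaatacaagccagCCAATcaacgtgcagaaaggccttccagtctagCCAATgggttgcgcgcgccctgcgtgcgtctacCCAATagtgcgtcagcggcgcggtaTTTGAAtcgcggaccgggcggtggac

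The promoters of the 3 genes past 2-fold, Mybl2, Cdc25b and Pttg1, are printed in the same way for comparison. All 3 are among the 17 genes without TTTGAA, and the others of the 17 were within 2-fold before scaling. The window of Cdc25b (chr2:131186828-131186977, plus strand) holds 1 CCAAT match and no TTTGAA. Those of Mybl2 (chr2:163054515-163054664, plus strand) and Pttg1 (chr11:43425952-43426101, minus strand) hold no match to either. Their full 300 bases hold no TTTGAA, no CCAAT and no match to TTTGGCG or TTTCCCG. No match says only that these letters are not in this window. Variants of the patterns were not searched, and the printed Mybl2 sequence holds cttggcg, which differs from TTTGGCG in 1 letter.
Mybl2: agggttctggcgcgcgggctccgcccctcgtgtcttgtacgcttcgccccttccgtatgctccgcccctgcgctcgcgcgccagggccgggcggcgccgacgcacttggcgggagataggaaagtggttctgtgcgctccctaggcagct
Cdc25b: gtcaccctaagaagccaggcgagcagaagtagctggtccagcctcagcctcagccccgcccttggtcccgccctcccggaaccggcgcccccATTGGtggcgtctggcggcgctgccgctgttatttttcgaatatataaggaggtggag
Pttg1: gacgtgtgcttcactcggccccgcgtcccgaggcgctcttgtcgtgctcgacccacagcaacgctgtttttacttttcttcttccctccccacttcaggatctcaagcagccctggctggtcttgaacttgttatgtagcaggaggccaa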

How the data were processed

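RNA of FACS-collected MNs was sequenced in 3 Hb9 control and 3 A2 SMA samples. The authors checked reads with FastQC 0.10.1, removed adapters with CutAdapt, and aligned reads with TopHat 2.04 (build NCBI m37). Cufflinks served for assembly and Cuffdiff for the comparison of genotypes. Values are FPKM as deposited by the authors, 1 per gene or locus and genotype; they combine the samples, so the number of reads behind each gene's value is unknown. The table's columns for log2 fold change, test statistic, p, q and significance hold the authors' comparison and were not used; the status column served as a quality note.

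Symbols were matched after splitting shared loci, and the entry with the highest FPKM was kept. Log2 ratios were formed without a pseudocount. All genes are those with a symbol, at least 1 FPKM in 1 genotype and above 0 in both, with each locus counted once. Ratios of at least 2-fold were counted in place of a test. The calculation was tested on simulated data. Locus starts were shifted by 1 base, because, of 27452 genes compared, the length matched that of GENCODE for 9934 with starts read as 0-based and for 265 with starts read as 1-based. Promoter orientation was checked against GENCODE transcripts, where 37 of 42 promoters were found on the same strand and 0 on the other.

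The members and gene lists were chosen with earlier results of these data known. The genes that could be named were all 46 genes, any marker, Smn1, Mnx1, and of each other list those among the 3 with the highest FPKM, the 2 highest and the 2 lowest log2 ratios; others are named as chosen after their values were seen. The lists were written from general knowledge. Not in the table were Ska3, Mis18a, Bora, Cdt1, Gins2, Sox1, Tubb3, Map2 and Slc18a3. Alternatives were pseudocounts of 0.1 and 1 FPKM, no minimum or 5 FPKM, summed entries, loci with 1 symbol, a 1.5-fold limit, leaving out the status FAIL, and scaling to the median gene, the upper quartile or Gusb, Pgk1 and Rpl13a. Python 3.11.15, numpy 2.4.6, pandas 2.3.3, scipy 1.17.1 and matplotlib 3.10.9 were used.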

Additional observations from a re-analysis of the deposited data

How the results depend on the processing

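Scaling moved the medians upward, since it lifts every ratio by the same amount: by 0.29 for the median gene, 0.40 for the upper quartile and 0.14 for Gusb, Pgk1 and Rpl13a. The median log2 ratio of the 46 genes became 0.50, 0.61 and 0.35 in that order, and that of the other mitosis genes 0.49, 0.60 and 0.34. The count at least 2-fold higher became 3, 5 and 2, beside 10.4%, 12.5% and 8.29% of all genes, and that at least 2-fold lower became 1, 1 and 2, beside 16.5%, 14.6% and 19.2%. With upper quartile scaling Cdk1 (1.05) and Cdc20 (1.06) were among the 5. With a 1.5-fold limit, 5 genes were higher, beside 12.7% of all genes, and 2 were lower, beside 35.4%. Leaving out the status FAIL removed 18 genes, after which 22 of 28 were higher in A2 SMA MNs, beside 33.8% of all genes, and 1 was at least 2-fold lower, beside 23.4%. Pttg1 had a log2 ratio of -0.95 relative to the median gene and -0.84 with upper quartile scaling, both within 2-fold, whereas Cdc25b was past 2-fold under each scaling (-1.20, -1.08 and -1.34). Of 46 genes, 44, 44 and 40 were higher in A2 SMA MNs under the 3 scalings in the order above, beside 50%, 55.9% and 42.0% of all genes, which the same shift moved. Mybl2, Cdc25b and Pttg1, the genes past 2-fold, kept their sign under the 3 scalings. Genes within 2-fold did turn, among them Top2a (0.09 and 0.20) and Mki67 (0.00 and 0.11) with scaling to the median gene and the upper quartile, and Cdc25c with summed entries. Pseudocounts, filters on FPKM, summed entries and loci with 1 symbol moved the medians of the 46 genes by less than 0.1 and their counts by less than 1.5 times.

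No paired analysis was possible because the table gives 1 value per genotype, and leaving out samples in turn was not possible for the same reason. How far samples of a genotype differ, and how many reads lie behind a value, is unknown, and the differences between genotypes are given here without an error.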
